A study of Sus scrofa domesticus with 12 samples.

Results

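Volumetric muscle loss (VML) left without an implant was compared with sham surgery in the peroneus tertius (PT) muscle of female Yorkshire Cross pigs, to give the state of the tissue when nothing is placed in the defect. The genes described are all those with at least 1 TPM in both limbs of either group, which were 8726 of the 11506 named genes in the table. TPM is a transcript level corrected for length and scaled to the same sum in every library. The non-repaired limbs were the left limb of pig 017 and the right limb of pig 023, and the sham-operated limbs were the left limbs of pigs 025 and 026. In a non-repaired limb a block of the PT muscle was cut out of its middle portion, whereas in a sham-operated limb the muscle was exposed and no muscle was removed. Marker sutures were placed in both groups, both were sampled 12 weeks after surgery, and neither received a scaffold or gel. The series holds 12 libraries from 11 young adult pigs, and the other 8 libraries come from limbs repaired with an extracellular matrix (ECM) or a hyaluronic acid gel (Hya), among them the right limb of pig 017. Surgery was bilateral, so the non-repaired limb of pig 017 shared its animal with a Hya-repaired limb, and the 2 groups compared here share no pig.

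A muscle fiber is repaired by satellite cells, which lie under the basal lamina that wraps it, and both are lost with the tissue when a block of muscle is removed. Fibroblasts and fibro-adipogenic progenitors then fill the gap with collagens, proteoglycans and glycoproteins, macrophages clear debris and secrete factors such as TGF-β that act on these cells, and the remaining fibers carry the load. In bulk tissue, RNA of all these cells is measured together, so that fewer cells of a type and less RNA per cell cannot be told apart.

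The 2 limbs of a group were alike over the 8726 genes, with a squared Pearson correlation of log2(TPM + 0.5) of 0.953 for the non-repaired and 0.952 for the sham-operated limbs. The named genes held 79.2 and 79.5% of the TPM of the non-repaired and 74.4 and 71.5% of that of the sham-operated libraries. TPM do not hold the sequencing depth of each library, and the paper gives only an average depth. The number of limbs limits the precision given here, and how far read sampling adds to the spread of low genes was not tested. With 2 limbs against 2, an exact permutation test has 6 splits and cannot give a two-sided p under 0.333, so tests come from limma, fitted to all genes and all 12 libraries. The sham-operated libraries were dominated by a few transcripts of the contractile fiber. The 20 genes most abundant in sham-operated muscle held 45.3 and 40.1% of the TPM in sham-operated limbs and 11.4 and 14.6% in non-repaired limbs. A smaller share for these genes leaves more of a fixed sum to every other gene, and the median log2 fold change over all genes was 0.89 as deposited. Each value is therefore also given after rescaling the libraries by trimmed means, on which scale the median was -0.02 and fold changes lie about 1 log2 unit lower than as deposited.

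As deposited, 3934 genes (45.1% of those tested) were higher and 104 genes (1.19%) were lower in non-repaired than in sham-operated muscle at an adjusted p under 0.05. Rescaled, 1935 genes (22.2%) were higher and 1864 genes (21.4%) were lower, so higher genes made up 97.4% of the calls as deposited and 50.9% rescaled. The 1935 genes and the 104 genes passed on both scales (22.2% and 1.19% of those tested) and no gene changed from higher to lower. Of the 3934 genes, 3536 were at least 2-fold higher, and 171 of the genes called on both scales were at least 16-fold higher as deposited. Both non-repaired limbs lay above both sham-operated limbs for 70.8% of genes and below them for 14.05% as deposited, and for 38.0% and 39.6% rescaled. A gene measured in one group only had to differ to be measured at all, and 1199 genes passed the filter through the non-repaired limbs alone and 106 through the sham-operated limbs alone. Leaving out the sham-operated limb of pig 025 lowered the higher genes to 2184 as deposited and to 1055 rescaled, and leaving out any 1 of the 4 limbs left 15 to 21 lower genes as deposited and 474 to 1253 rescaled.

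Among genes above the median TPM of 11.8, the largest rise was of S100A6. This gene, which encodes a small calcium-binding protein of fibroblasts and other cells, was at 4192 and 3586 TPM in the non-repaired limbs of pigs 017 and 023 and at 3.18 and 38.9 TPM in the sham-operated limbs of pigs 025 and 026. The sham-operated limbs were unlike each other, yet both lay far below the non-repaired limbs (log2 fold change 8.33 ± 2.83, adjusted p = 0.0334 by limma, with the standard error after the ±). In the same order of pigs, ACAN, the large aggregating proteoglycan of cartilage and tendon, was at 391 and 355 against 0.874 and 0.663 TPM (8.20 ± 0.57, adjusted p = 3.36e-06). POSTN, a matricellular protein made by activated fibroblasts, was at 2643 and 3391 against 7.103 and 15.7 TPM (8.08 ± 0.50, adjusted p = 2.59e-06), with a narrower spread in both groups than S100A6. The other rises among the first 12 genes were of ASPN (7.60), a small proteoglycan that binds collagen, PTN (7.32), a heparin-binding growth factor, CTHRC1 (7.21), a secreted protein of fibroblasts in repair, COL8A1 (7.12), S100A4 (7.02), FNDC1 (6.97), SFRP2 (6.65), CRABP2 (6.57), which carries retinoic acid, and COMP (6.41), a pentameric protein of cartilage and tendon. All 12 were also higher after rescaling, by 5.48 for COMP to 7.43 for ACAN on the log2 scale. ACAN and PTN had passed the filter through the non-repaired limbs alone, so they had to differ to be measured. The call of S100A6 was lost as deposited whichever of the 4 limbs was left out.

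**Figure D1:**
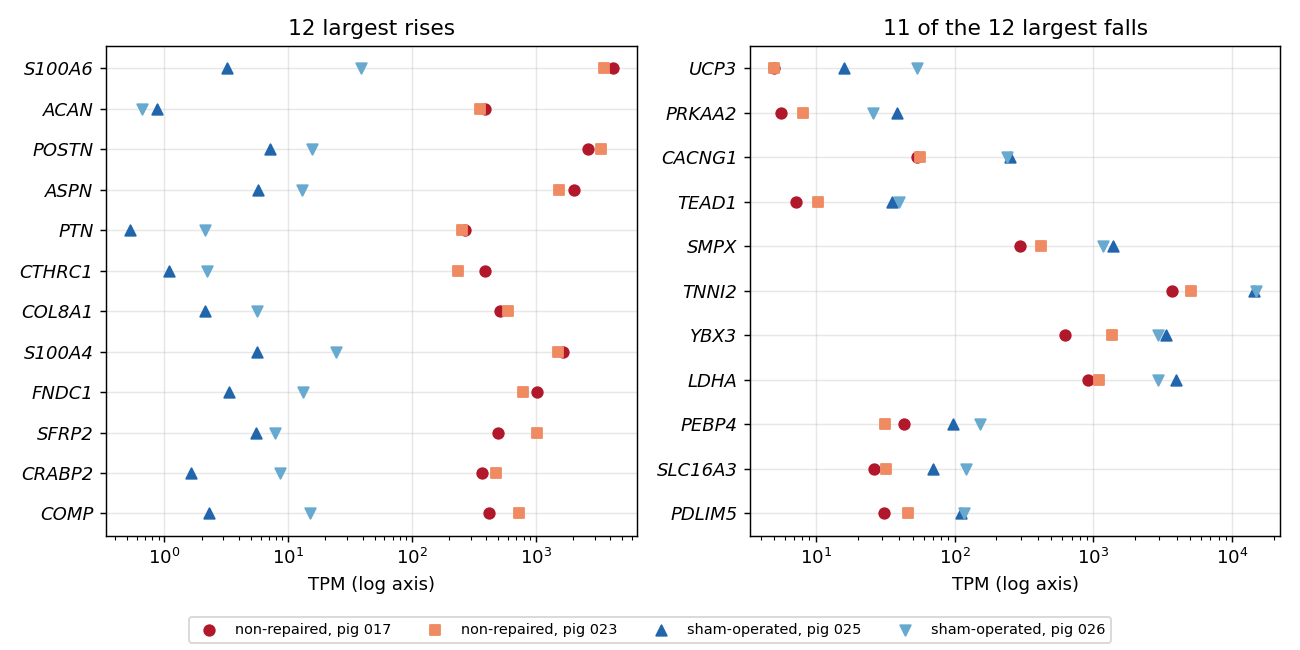
TPM on a log axis in each of the 4 limbs for the 12 genes with the largest rises and 11 of the 12 with the largest falls that passed on both scales, among genes above the median TPM of 11.8 whose groups did not overlap, 1 point per limb. The rises span about 2 powers of 10, from below 40 TPM in every sham-operated limb to above 200 TPM in every non-repaired limb, whereas the falls stay within about 1 power of 10.

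Fibrillar collagen transcripts, which encode the rope-like collagens of scar and tendon, took 9.32 and 7.61% against 0.117 and 0.182% of the TPM in non-repaired against sham-operated limbs. Of the 10 genes listed 6 were tested and 5 rose, with a median log2 fold change of 5.31 (4.34 rescaled), and 5 rose rescaled. Over all genes 45.1% were higher as deposited and 22.2% rescaled. COL3A1, the collagen of early scar, was at 46138 and 33685 against 571 and 780.1 TPM (5.88 ± 0.45, adjusted p = 4.56e-06), and COL1A2, a chain of the main collagen of scar and tendon, at 26853 and 25665 against 279.6 and 483 TPM (6.16 ± 0.46, adjusted p = 3.56e-06). The mean level in non-repaired limbs was 59.1-fold that in sham-operated limbs for COL3A1 and 68.9-fold for COL1A2. COL1A1, the partner chain of COL1A2, was listed at 0 in all 12 libraries, which can be a failed estimate. It was not tested, and the shares above hold none of it. COL5A1 (5.12) and COL5A2 (5.50), whose chains start and thin the fibrils, rose as well, whereas COL5A3 was at 19.97 and 25.8 against 5.13 and 8.62 TPM and did not pass (adjusted p = 0.0685 by limma). Among the other interstitial collagens 5 of 5 tested genes rose (4 rescaled). COL6A1, COL6A2 and COL6A3, which form the beaded microfilaments around cells, rose by 4.81, 4.52 and 4.42. COL8A1, a short-chain collagen, was at 516 and 599 against 2.13 and 5.58 TPM and showed the largest change of the collagens.

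Proteoglycans and matricellular proteins moved with the collagens. All 10 tested proteoglycans of 16 listed rose on both scales, with a median of 5.30 (4.36 rescaled). The counts of higher genes in these lists compare with 45.1% of all genes as deposited and 22.2% rescaled. ACAN was the 1 member that had passed the filter through 1 group alone. DCN, the decorin that coats collagen fibrils and binds TGF-β, was the most abundant of them in sham-operated muscle and was at 2763 and 2362 against 183 and 187 TPM (3.78 ± 0.38, adjusted p = 2.05e-05). BGN, its close relative biglycan, started from a lower level and was at 2775 and 2012 against 27.3 and 71.6 TPM (5.72 ± 0.52, adjusted p = 1.28e-05). The order of the 2 genes, DCN well above BGN in both sham-operated limbs, was gone in the non-repaired limbs, where their levels were within 1.2-fold of each other. Of the matricellular proteins and fibronectin, which tell cells about the matrix rather than bear load, 15 of 17 rose (14 rescaled). Among these 17 genes 4, TNC included, had passed the filter through 1 group alone. FN1 (fibronectin) was at 3038 and 2404 against 36.9 and 82.95 TPM (5.60 ± 0.55, adjusted p = 1.69e-05), THBS4, a thrombospondin of tendon and muscle attachment, at 1528 and 1596 against 17.9 and 96.01 TPM (5.21 ± 0.69, adjusted p = 1.14e-04) and TNC (tenascin C) at 49.1 and 78.8 against 0.574 and 3.79 TPM (4.87 ± 0.66, adjusted p = 1.40e-04). SPARC, which binds collagen, was at 4812 and 1768 against 87.9 and 142 TPM, so that the non-repaired limb of pig 017 was well above that of pig 023, and it passed as deposited (4.70 ± 1.36, adjusted p = 0.0152) but not rescaled (adjusted p = 0.0504). SPARCL1 (1.16) and VTN (1.14) did not pass. Elastic fiber genes rose in 11 of 11 cases on both scales, by less than the collagens (median 2.81 (1.85 rescaled)), with ELN, the elastin core, at 121 and 109 against 9.69 and 26.9 TPM (2.79 ± 0.63, adjusted p = 0.00354) and MFAP2, a microfibril component, at 427 and 332 against 4.35 and 18.7 TPM (5.29 ± 0.60, adjusted p = 4.31e-05). With pig 017, 023, 025 or 026 left out in turn, 11, 8, 7 and 11 elastic fiber genes were higher as deposited and 7, 8, 5 and 9 rescaled. As deposited, SPARC no longer passed when the limb of pig 017 or 025 was left out, and ELN when the limb of pig 025 was left out.

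The machinery that builds, crosslinks and cuts collagen was higher too. Of the genes for collagen folding and crosslinking 14 of 17 rose as deposited and 14 rescaled (median 3.43 (2.44 rescaled)). The share of all genes that were higher was 45.1% as deposited and 22.2% rescaled. Among these 17 genes 2, LOX included, had passed the filter through 1 group alone. LOX, which crosslinks collagen and elastin, was at 45.997 and 63.05 against 0.854 and 2.38 TPM (4.78 ± 0.64, adjusted p = 1.27e-04). SERPINH1, the collagen chaperone HSP47, was at 832 and 933 against 21.7 and 70.8 TPM (4.47 ± 0.56, adjusted p = 7.69e-05) and FKBP10, a prolyl isomerase of collagen, at 203 and 181 against 3.09 and 7.34 TPM (5.18 ± 0.50, adjusted p = 1.69e-05). None of the 3 genes overlapped between groups, and 70.8% of all genes lay above both sham-operated limbs as deposited. TGM2, a transglutaminase, was at 7.58 and 14.1 against 11.2 and 17.1 TPM and fell on the rescaled scale alone (-1.37 ± 0.44, adjusted p = 0.0277). Proteases and their inhibitors rose in 16 of 18 cases (13 rescaled, median 3.52 (2.69 rescaled)), 5 of which had passed the filter through 1 group alone. MMP2, a gelatinase, was at 2486 and 2047 against 26.1 and 79.8 TPM (5.61 ± 0.55, adjusted p = 1.69e-05), its activator MMP14 at 360.3 and 318 against 5.16 and 13.5 TPM (5.25 ± 0.54, adjusted p = 2.39e-05) and FAP, a surface protease of activated fibroblasts, at 275 and 225 against 4.64 and 5.57 TPM (5.48 ± 0.44, adjusted p = 6.23e-06). The inhibitor TIMP1 was at 150.4 and 150.3 against 7.24 and 21.1 TPM (3.54 ± 0.47, adjusted p = 1.16e-04), whereas TIMP3 (0.79) and TIMP4 (-0.26) did not pass. The basement membrane, the thin sheet under cells, showed smaller changes (median 1.89 (0.90 rescaled)). Here 5 of 8 genes were higher as deposited and 3 rescaled, against 45.1% and 22.2% of all genes. Its collagen chains COL4A1 (1.76, rescaled 0.77) and COL4A2 (2.03, rescaled 1.03) passed only as deposited, and LAMB1 (2.51, rescaled 1.55) passed on both. There were 3, 2, 2 and 6 basement membrane genes higher as deposited and 1, 2, 0 and 2 rescaled with pig 017, 023, 025 or 026 left out in turn. COL4A1 and COL4A2 fell short of the threshold as deposited when the limb of pig 017, 023 or 025 was left out.

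Secreted proteins pass through the endoplasmic reticulum and Golgi. Genes of this route rose in 34 of 38 cases as deposited and 23 rescaled, against 45.1% and 22.2% of all genes. The median of the list was 2.06 (1.07 rescaled). KDELR3, a receptor that returns resident proteins to the endoplasmic reticulum, was at 207 and 202 against 3.34 and 5.57 TPM (5.41 ± 0.40, adjusted p = 3.36e-06). SEC24D, a cargo adaptor of the vesicles that carry procollagen, was at 79.1 and 87.8 against 5.87 and 6.88 TPM (3.61 ± 0.33, adjusted p = 1.28e-05), and SEC61A1, the channel through which new chains enter, at 136 and 127 against 9.65 and 19.7 TPM (3.20 ± 0.53, adjusted p = 4.58e-04). The non-repaired limbs were close to each other for all 3 genes. HSPA5, the main chaperone of this compartment, was at 124 and 170.00 against 36.8 and 49.7 TPM and rose less (1.75 ± 0.38, adjusted p = 0.00262). SAR1B, a GTPase of the same vesicles, was the only member lower after rescaling (-2.05 ± 0.52, adjusted p = 0.00972), from 99.9 and 81.8 against 216 and 164 TPM. With pig 017, 023, 025 or 026 left out in turn, 14, 19, 14 and 19 genes of the list were higher after rescaling. Cytosolic ribosomal proteins took 14.8 and 14.5% against 9.19 and 9.91% of the TPM. As deposited 19 of 72 were higher, against 45.1% of all genes, but 2, 2, 2 and 7 were with pig 017, 023, 025 or 026 left out in turn and 48 with only the 4 compared libraries, a fit in which 4855 of all 8726 genes were higher. Their median was 0.80 as deposited and of the other sign, -0.20, rescaled. RPL3 was at 706 and 796 against 89.9 and 158 TPM and passed on both scales (2.65 ± 0.38, adjusted p = 2.05e-04), with the caveat that many ribosomal genes have near-identical pseudogenes among which reads can be split.

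**Figure D2:**
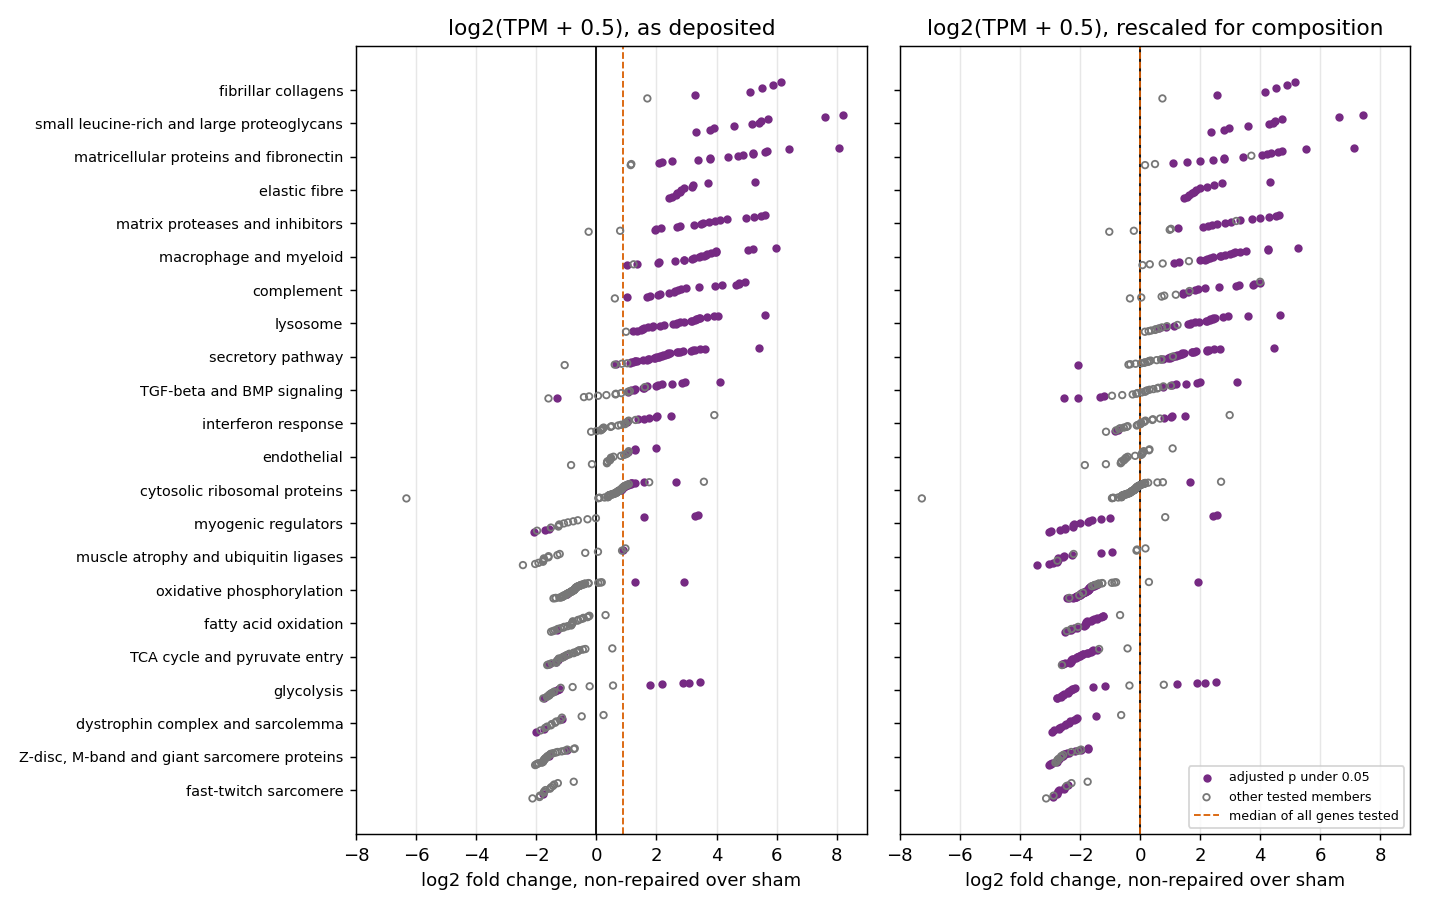
Log2 fold change of non-repaired over sham-operated muscle for each tested member of 22 gene lists, as deposited on the left and rescaled on the right, with filled points for an adjusted p under 0.05 and open points for the rest. Matrix, macrophage, complement and lysosome genes lie right of the dashed median of all genes on both panels, and genes of the sarcomere, the dystrophin complex and mitochondria lie left of it, with few exceptions in each.

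Members of the TGF-β pathway moved both ways. The ligand TGFB1, the main fibrogenic form, was at 77.98 and 73.3 against 5.15 and 16.8 TPM (2.94 ± 0.46, adjusted p = 3.49e-04, rescaled 1.98 ± 0.41, adjusted p = 0.00395). TGFB3 rose more, from a lower level, at 70.8 and 54.6 against 1.57 and 5.81 TPM (4.11 ± 0.56, adjusted p = 1.41e-04), and TGFB2 was at 31.2 and 31.2 against 12.4 and 8.69 TPM and passed only as deposited (1.54, rescaled 0.57). The receptors TGFBR1 (2.04) and TGFBR2 (2.85) and the activin receptor ACVR1 (2.18) rose on both scales. Of the transducers, SMAD2 rose (1.69, rescaled 0.77), whereas SMAD3 (-0.24, rescaled -1.19) and the inhibitory SMAD7 (-0.42, rescaled -1.32) fell on the rescaled scale only. ID3, a target gene of BMP signaling, rose (2.53), and ID1 (0.05) did not pass. MSTN, the myostatin that fibers secrete to restrain their own growth, was at 3.06 and 5.19 against 13.9 and 12.4 TPM and fell rescaled (-2.54 ± 0.73, adjusted p = 0.0165). ACVR2B, a receptor for myostatin, was at 0.616 and 0.637 against 2.58 and 2.04 TPM and fell on both scales (-1.31 ± 0.43, adjusted p = 0.0236). It had passed the filter through the sham-operated limbs alone, so it had to differ to be measured. Over the list 14 of 26 genes were higher and 1 lower as deposited, and 7 and 4 rescaled. The shares of higher genes lay near the background of 45.1% and 22.2% of all genes, and with pig 017, 023, 025 or 026 left out in turn the first count was 10, 8, 9 and 14 and the count lower rescaled was 1, 3, 1 and 2. The calls of TGFB2 and ACVR2B were lost as deposited whichever of the 4 limbs was left out.

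Secreted antagonists made up the largest changes among Wnt genes. SFRP2, a secreted frizzled-related protein, was at 498 and 1022 against 5.52 and 7.85 TPM (6.65 ± 0.42, adjusted p = 2.59e-06), SFRP4 at 516 and 485 against 5.78 and 11.3 TPM (5.86 ± 0.51, adjusted p = 9.24e-06) and SFRP1 at 99.8 and 159.6 against 1.46 and 1.69 TPM (5.94 ± 0.52, adjusted p = 9.24e-06). All 3 were below 12 TPM in each sham-operated limb. DKK3 rose as well (4.17), whereas FRZB, a further antagonist, was at 45.3 and 27.7 against 76.3 and 83.3 TPM and fell rescaled (-2.15 ± 0.64, adjusted p = 0.0202). Downstream, the transcription factor LEF1 (1.65) and the coreceptor LRP6 (1.81) rose on both scales, and CTNNB1 (β-catenin) was at 153 and 169.9 against 61.7 and 66.04 TPM, higher only as deposited (1.33, rescaled 0.34). Among the 14 Wnt genes 2, LEF1 included, had passed the filter through 1 group alone, so they had to differ to be measured. In all 9 of 14 Wnt genes were higher and 0 lower as deposited, and 8 and 2 rescaled, against 45.1% and 22.2% of all genes higher. Rescaled, 5, 7, 6 and 6 were higher and 1, 0, 0 and 0 lower with pig 017, 023, 025 or 026 left out in turn. Growth factors of the scar rose in 13 of 21 cases on both scales, against 45.1% and 22.2% of all genes. Here 5 of the 21, PTN among them, had passed the filter through 1 group alone. IGF1, which promotes fiber growth and is made by macrophages and stromal cells, was at 39.5 and 24.7 against 1.28 and 2.65 TPM (3.74 ± 0.46, adjusted p = 6.69e-05), while IGF2 was at 185 and 193 against 145 and 154 TPM and did not pass. MDK (midkine), the relative of PTN, rose by 3.73, and GAS6, a ligand through which macrophages recognise dead cells, by 4.19. EGF (-1.86, rescaled -2.83) and HBEGF (-1.83, rescaled -2.80) were the members that fell, on the rescaled scale only, and neither did without pig 017 or without pig 025. As deposited, LEF1 no longer passed when the limb of pig 023 or 025 was left out.

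Markers of the cells that make matrix followed the matrix itself. Fibroblast and progenitor markers rose in 14 of 17 cases (12 rescaled, median 3.33 (2.52 rescaled)). Over all genes 45.1% were higher as deposited and 22.2% rescaled, and 4 of the 17 had passed the filter through 1 group alone. PDGFRA, the receptor that marks fibro-adipogenic progenitors, was at 11.1 and 17.4 against 1.98 and 1.95 TPM (2.55 ± 0.41, adjusted p = 3.72e-04), and THY1, a surface protein of fibroblasts, at 3150.4 and 2145 against 29.6 and 52.6 TPM (6.02 ± 0.51, adjusted p = 7.88e-06). DPT (dermatopontin) was at 717 and 459 against 9.02 and 17.4 TPM (5.46 ± 0.51, adjusted p = 1.31e-05). Thus the receptor changed far less than the secreted or surface products. CD34, found on progenitors and endothelium, was at 34.3 and 52.01 against 10.9 and 26.7 TPM and did not pass (adjusted p = 0.141 by limma). Contractile genes of myofibroblasts and smooth muscle did not move together. TAGLN (2.37, rescaled 1.38), CALD1 (3.16, rescaled 2.18) and TPM4 (3.90, rescaled 2.90) rose on both scales, ACTA2, the α-smooth muscle actin, was at 206 and 363 against 70.2 and 175 TPM and passed only as deposited (1.30 ± 0.48, adjusted p = 0.0427), and CNN1, a calponin of mature smooth muscle, was at 27.2 and 33.4 against 25.2 and 40.5 TPM and fell rescaled (-1.07). Genes of tendon and cartilage rose in 6 of 8 cases on both scales, and 2 of the 8 had passed the filter through 1 group alone. TNMD (tenomodulin), a membrane protein of tendon cells, was at 105 and 219 against 0.896 and 6.44 TPM (5.61 ± 1.10, adjusted p = 0.00184) and RUNX2, a transcription factor of bone and cartilage, rose by 2.67. SCX, the defining tendon transcription factor, has no entry in the table. ACTA2 and RUNX2 fell short of the threshold as deposited when the limb of pig 023 or 025 was left out.

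Macrophage genes rose almost as a block. Of 24 genes listed 22 were tested, 21 rose as deposited and 18 rescaled, with a median of 3.44 (2.54 rescaled), and 8 had passed the filter through 1 group alone. Of all genes 45.1% were higher as deposited and 22.2% rescaled, and 70.8% lay above both sham-operated limbs as deposited. CD163, the haemoglobin scavenger receptor, was at 30.02 and 32.5 against 3.63 and 3.82 TPM (2.91 ± 0.34, adjusted p = 4.94e-05). CD68, a lysosomal glycoprotein of phagocytes, was at 48.7 and 38.5 against 1.68 and 3.06 TPM (3.97 ± 0.38, adjusted p = 1.52e-05) and CD14, the lipopolysaccharide coreceptor, at 34.8 and 26.4 against 1.19 and 2.89 TPM (3.69 ± 0.36, adjusted p = 1.69e-05). The non-repaired limbs were close to each other and the groups did not overlap for these 3 genes, while the sham-operated limbs differed more for CD68 and CD14. CD86, a costimulatory ligand for T cells, was near 1 TPM or less in sham-operated limbs, at 46.4 and 43.4 against 0.973 and 0.783 TPM (5.04 ± 0.42, adjusted p = 6.53e-06). GPNMB, a marker of lipid-laden macrophages, was at 110.4 and 49.9 against 0.441 and 0.97002 TPM (5.99 ± 0.47, adjusted p = 5.21e-06), with pig 017 above pig 023, and TREM2, a lipid receptor of such cells, at 6.63 and 4.14 against 0 and 0.03497 TPM (3.47 ± 0.47, adjusted p = 1.28e-04). CSF1, the growth factor of the lineage, was the member that did not pass (6.55 and 15.4 against 2.59 and 6.06 TPM, adjusted p = 0.201 by limma), and its receptor CSF1R has no entry in the table.

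Complement and lysosome genes, many of them expressed by macrophages, rose in 18 of 19 and 27 of 28 tested cases (12 and 19 rescaled). Over all genes 45.1% were higher as deposited and 22.2% rescaled. Of the tested genes, 5 of complement and 1 of the lysosome had passed the filter through 1 group alone. The subunits of C1q, the recognition unit of the classical pathway, moved in step, with C1QA at 326 and 285 against 7.12 and 12.2 TPM (4.95 ± 0.34, adjusted p = 3.36e-06), C1QB at 315 and 258 against 7.83 and 13.4 TPM and C1QC at 296 and 249 against 7.63 and 11.9 TPM. The levels of the 3 subunits were within 1.2-fold of each other in each limb. C3, on which all complement routes meet, rose less and with less agreement of limbs, at 51.7 and 17.6 against 11.6 and 6.25 TPM (1.77 ± 0.59, adjusted p = 0.0270), and did not pass rescaled (adjusted p = 0.367). The receptors for the split products, C3AR1 (2.97) and C5AR1 (3.40), and the regulators CLU (4.19), SERPING1 (2.82) and CD59 (2.42) rose on both scales. Among lysosomal genes, CTSH, a cysteine protease, was at 794 and 374 against 7.33 and 15.3 TPM (5.62 ± 0.48, adjusted p = 7.92e-06), with the limb of pig 017 at more than 2 times that of pig 023. CTSK, the collagen-degrading cathepsin counted with the matrix proteases, was at 525 and 407 against 9.37 and 21.2 TPM (4.98 ± 0.41, adjusted p = 6.23e-06), and CTSB at 760.2 and 636 against 51.9 and 93.4 TPM (3.31 ± 0.35, adjusted p = 3.10e-05). The call of C3 was lost as deposited when the limb of pig 017 or 026 was left out.

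Chemokines, cytokines and their receptors were mixed, with 22 of 33 higher as deposited and 16 higher and 1 lower rescaled. The shares of all genes that were higher were 45.1% and 22.2%. Of the 33 genes 9 had passed the filter through 1 group alone. CCL2, which draws monocytes, was at 28.98 and 70.7 against 4.53 and 5.19 TPM (3.10 ± 0.55, adjusted p = 7.53e-04) and CCL24, which draws eosinophils, at 28.2 and 41.9 against 4.4003 and 4.23 TPM (2.86 ± 0.40, adjusted p = 1.51e-04). The counts of higher genes as deposited with pig 017, 023, 025 or 026 left out in turn were 18, 14, 14 and 19, and rescaled they were 12, 9, 8 and 12. CXCL12 was at 184 and 284 against 134 and 166 TPM and did not pass (adjusted p = 0.274 by limma), as did the interferon-induced CXCL9 (0.92) and CXCL10 (0.56). IL10, an anti-inflammatory cytokine, was low, at 1.53 and 2.22 against 0.213 and 0.0819 TPM, and rose as deposited (1.86 ± 0.61, adjusted p = 0.0238) but not rescaled (adjusted p = 0.0914). IL6 was similarly low, at 1.42 and 2.94 against 0.267 and 0.297 TPM (1.72 ± 0.50, adjusted p = 0.0135). TNF was below the filter in all groups and was not tested. For genes this low the pseudocount of 0.5 understates the fold. IL6R, the receptor that binds IL6, fell rescaled (-1.79 ± 0.47, adjusted p = 0.0116), from 1.06 and 2.24 against 4.09 and 2.95 TPM. As deposited, IL10 no longer passed whichever of the 4 limbs was left out, and IL6 when the limb of pig 023 or 025 was left out.

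Lymphocyte markers were near the filter. Only 9 of 24 T and NK cell genes were tested, and 8 of these passed the filter through 1 group alone. Such genes had to differ, so the 3 called higher (2 rescaled) are a description only. CD3E, part of the T cell receptor complex, was at 2.12 and 2.34 against 0.572 and 0.969 TPM and did not pass (adjusted p = 0.186 by limma), while CD4, also found on macrophages in some species, was at 1.998 and 1.56 against 0.0468 and 0.518 TPM and passed as deposited (1.60). NKG7, a granule protein of killer cells, was at 12.8 and 10.3 against 0.544 and 1.68 TPM (2.99 ± 0.42). CD3E, CD4 and NKG7 had all passed the filter through the non-repaired limbs alone. The B cell markers CD79A, CD79B and MS4A1 were below the filter, and JCHAIN, which joins secreted antibodies, was at 7.37 and 4.55 against 3.495 and 6.22 TPM with overlapping groups. Genes of MHC class II, which present antigen, were higher in 6 of 9 cases as deposited and 2 rescaled, against 45.1% and 22.2% of all genes. The rescaled share thus lay near that of all genes. SLA-DRA was at 292 and 304 against 64.4 and 98.8 TPM (1.89 ± 0.54, adjusted p = 0.0126) and SLA-DMB at 65.2 and 57.6 against 6.29 and 9.41 TPM (2.91 ± 0.37, adjusted p = 8.23e-05). The counts as deposited with pig 017, 023, 025 or 026 left out in turn were 3, 4, 3 and 5. Interferon-induced genes did not form a block: 7 of 25 were higher as deposited, and 4 were higher and 2 lower rescaled, against 45.1% and 22.2% of all genes higher. With the limbs left out in the same order 6, 3, 4 and 5 were higher as deposited and 2, 2, 1 and 1 rescaled. ISG15 (8.13 and 15.3 against 4.38 and 6.95 TPM), MX1 (5.85 and 13.9 against 3.72 and 4.38 TPM) and IFIT1 (5.299 and 11.2 against 6.59 and 7.34 TPM), which respond strongly to type I interferon, did not pass on either scale. IFITM3 rose by 2.49 (rescaled 1.51). CD4 and SLA-DRA fell short of the threshold as deposited when the limb of pig 017, 023 or 025 was left out.

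Transcripts of the contractile fiber took a far smaller part of the RNA. Fast-twitch sarcomere genes held 4.92 and 6.34% against 20.6 and 19.4% of the TPM and slow-twitch genes 1.15 and 1.29% against 4.404 and 4.23%. The defining genes of skeletal muscle were present in all 4 limbs. ACTA1, the actin of skeletal muscle, was at 10572 and 15687 against 50128 and 45630.3 TPM, and TNNI2, the fast troponin I, at 3716 and 5026 against 14368 and 14999 TPM. The groups did not overlap for either gene, although as deposited only TNNI2 passed (-1.76 ± 0.68, adjusted p = 0.0491) and ACTA1 did not (adjusted p = 0.0874). Rescaled, ACTA1 fell by 2.89 on the log2 scale (adjusted p = 0.0276 by limma). Both non-repaired limbs were below both sham-operated limbs for 13 of 13 fast-twitch and 9 of 10 slow-twitch genes as deposited, against 14.05% of all genes, and for all 13 and 10 of them rescaled, against 39.6%. The exception as deposited was CSRP3, a Z-disc protein that is richer in slow fibers, at 98.2 and 175 against 171 and 302 TPM. The limma calls were fewer, 1 fast-twitch and 0 slow-twitch genes as deposited and 8 and 3 rescaled, against 1.19% and 21.4% of all genes. The median log2 fold changes were -1.69 (-2.69 rescaled) and -1.74 (-2.74 rescaled). These calls depended on which libraries were in the fit, which shares one variance over all 12. Rescaled, 0, 0, 0 and 2 fast-twitch genes were lower with pig 017, 023, 025 or 026 left out in turn, and 0, 0, 0 and 0 slow-twitch genes, whereas with only the 4 compared libraries 13 and 10 were lower. MYH7, the slow myosin, was at 655 and 1309 against 2826 and 3457 TPM. MYH4, a fast myosin, was at 243 and 415 against 1796 and 1076 TPM. The means of MYH7 and MYH4 were 3.1998-fold and 4.36-fold lower than in sham-operated limbs. Neither gene passed on either scale (rescaled adjusted p = 0.136 and 0.0651 by limma). The call of TNNI2 was lost as deposited whichever of the 4 limbs was left out.

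**Figure D3:**
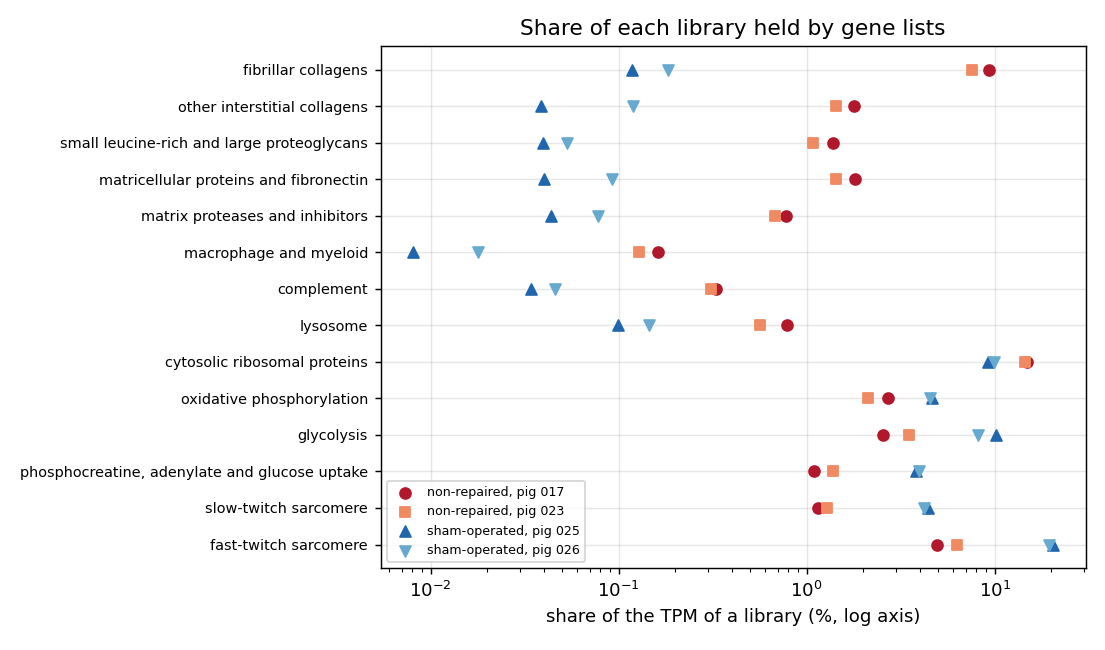
Share of the TPM of a library, in percent on a log axis, held by 14 gene lists in each of the 4 limbs, 1 point per limb. Fibrillar collagens rise from below 0.2% in both sham-operated limbs to above 7% in both non-repaired limbs, and fast-twitch sarcomere genes fall from about 20% to about 5 to 6%.

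Among genes above the same median TPM, 11 of the 12 largest falls that passed on both scales are given here. UCP3, an uncoupling protein of the muscle mitochondrion, was at 5.01 and 5.01 against 15.9 and 53.3 TPM (-2.43 ± 0.78, adjusted p = 0.0220). PRKAA2, the catalytic subunit of the energy sensor AMPK in muscle, was at 5.65 and 8.07 against 38.4 and 25.96 TPM (-2.14 ± 0.78, adjusted p = 0.0400). The groups were apart for both, and the non-repaired limbs agreed more closely than the sham-operated limbs for UCP3. CACNG1, a subunit of the voltage sensor of the T-tubule, was at 53.3 and 56.6 against 250.1 and 237 TPM (-2.14 ± 0.79, adjusted p = 0.0432). The others were TEAD1 (-2.06), SMPX (-1.86), TNNI2 (-1.76), YBX3 (-1.76), LDHA (-1.76), PEBP4 (-1.71), SLC16A3 (-1.64), a lactate exporter, and PDLIM5 (-1.59). The falls of these genes were at most 2.43 on the log2 scale as deposited, against rises of up to 8.33. As deposited, PRKAA2, CACNG1, SMPX, TNNI2, LDHA, PEBP4 and PDLIM5 no longer passed whichever of the 4 limbs was left out, UCP3 and SLC16A3 when the limb of pig 017, 023 or 026 was left out, YBX3 when the limb of pig 017, 025 or 026 was left out, TEAD1 when the limb of pig 017 was left out.

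Structural and membrane genes of the fiber were below sham in nearly every case. All 29 tested genes of the Z-disc, M-band and giant proteins, and all 14 of excitation-contraction coupling, had both non-repaired limbs below both sham-operated limbs after rescaling, against 39.6% of all genes. As deposited 29 and 13 did, against 14.05%. At the threshold, 2 and 2 were lower as deposited, and 18 and 8 rescaled, against 1.19% and 21.4% of all genes. DES (desmin) was at 699 and 1516 against 3169 and 4863 TPM and ACTN2, the actinin that anchors actin at the Z-disc, at 209 and 502 against 1126 and 1579.5 TPM, and both fell rescaled (-2.93 and -3.04). RYR1, the calcium release channel, was at 106 and 330.1 against 522 and 626 TPM and passed on neither scale (rescaled adjusted p = 0.139 by limma), with the non-repaired limb of pig 023 at about 3 times the level of pig 017. DMD (dystrophin), which ties the cytoskeleton to the membrane, was at 1.66 and 2.97 against 11.6 and 9.53 TPM and fell on both scales (-2.01 ± 0.69, adjusted p = 0.0307). Of the dystrophin complex and membrane genes 3 of 14 fell as deposited and 13 rescaled, including SNTB1 (-1.74) and SGCD (-1.15). Rescaled counts with pig 017, 023, 025 or 026 left out in turn were 4, 6, 3 and 6 for this list, 2, 7, 2 and 6 for the Z-disc list and 1, 3, 2 and 3 for excitation-contraction coupling. As deposited, the same fits left at most 1 gene lower in any of these lists. DMD and SNTB1 fell short of the threshold as deposited whichever of the 4 limbs was left out, and SGCD when the limb of pig 017 or 025 was left out.

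Myogenic regulators, the transcription factors and cofactors of the muscle lineage, fell more often than they rose after rescaling. MYOD1 was at 4.09 and 3.73 against 11.6 and 16.8 TPM (-1.72 ± 0.65, adjusted p = 0.0473). MYF5, which marks satellite cells and myoblasts, was low, at 0.775 and 0.799 against 1.29 and 2.92 TPM, and fell rescaled (-1.68), as did MYF6 (-2.51) and MEF2C (-2.24). TEAD1, a partner of YAP and a regulator of muscle genes, was at 7.197 and 10.3 against 35.4 and 39.9 TPM (-2.06 ± 0.54, adjusted p = 0.00789). PAX7 and MYOG, the markers of satellite cells and of differentiating myocytes, have no entry in the table. Among the 17 genes tested 3, MSC and MYF5 included, had passed the filter through 1 group alone, so they had to differ to be measured. In all 3 of 17 were lower and 3 higher as deposited, against 1.19% and 45.1% of all genes. Rescaled, 14 were lower and 2 higher, against 21.4% and 22.2% of all genes. Those that rose on both scales were MSC (musculin), a repressor also made by fibroblasts and lymphocytes, at 18.6 and 15.7 against 0.816 and 1.697 TPM (3.37 ± 0.40, adjusted p = 6.04e-05), and HES6 at 20.4 and 24.03 against 1.19 and 2.71 TPM (3.28 ± 0.53, adjusted p = 3.86e-04). There were 5, 7, 7 and 10 genes lower rescaled and 0, 1, 1 and 1 as deposited with pig 017, 023, 025 or 026 left out in turn. The call of MYOD1 was lost as deposited whichever of the 4 limbs was left out, and TEAD1 when the limb of pig 017 was left out.

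Genes of denervated or developing fibers gave no common direction. NCAM1, which spreads over a denervated fiber and also marks Schwann cells, was at 15.05 and 12.05 against 1.801 and 5.66 TPM and rose as deposited (1.89 ± 0.55, adjusted p = 0.0146). RUNX1, a transcription factor that is switched on by denervation and is also abundant in blood cells, was at 8.95 and 9.29 against 0.2996 and 1.82 TPM (2.82 ± 0.54, adjusted p = 0.00131). CHRNE, the adult subunit of the acetylcholine receptor, was at 5.13 and 4.14 against 0.223 and 0.635 TPM (2.50 ± 0.42, adjusted p = 5.08e-04), whereas CHRNA1, the subunit common to adult and embryonic receptors, was at 25.95 and 10.6 against 8.79 and 83.8 TPM with the sham-operated limbs on either side of the non-repaired limbs. MYH3 and MYH8, the embryonic and neonatal myosins, have no entry in the table. Over this list 5 of 11 genes were higher as deposited and 2 rescaled, near the 45.1% and 22.2% of all genes. Both counts were smaller without the limb of pig 025. RUNX1 and CHRNE were the 2 members that had passed the filter through 1 group alone. The ubiquitin ligases of muscle atrophy fell on the rescaled scale, with FBXO32 (atrogin-1) at 15.7 and 9.53 against 33.9 and 42.4 TPM (-2.57 ± 0.92, adjusted p = 0.0415 rescaled) and TRIM63 (MuRF1) at 52.5 and 44.1 against 139.9 and 198 TPM (-2.77 ± 0.95, adjusted p = 0.0339 rescaled). Among all genes 21.4% were called lower rescaled. Both non-repaired limbs were below both sham-operated limbs for FBXO32 and TRIM63, and for 14.05% of all genes as deposited. As deposited neither passed, and 11 of 16 genes of the list were lower rescaled against 1, 1, 1 and 3 with pig 017, 023, 025 or 026 left out in turn. As deposited, NCAM1 no longer passed when the limb of pig 017 or 025 was left out.

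Some glycolysis enzymes have a muscle form and a wider form, and the pairs below split by form in the sign of change. The genes that fell as deposited were LDHA (-1.76), TPI1 (-1.37), PGK1 (-1.30), PKM (-1.26) and GPI (-1.24), none of which belongs to these pairs. They encode enzymes that are abundant in fast fibers. Rescaled, 17 of 23 glycolysis genes fell, against 21.4% of all genes. The 5 that rose as deposited were HK1 (3.45), PFKP (3.08), PGAM1 (2.89), PFKL (2.20) and ENO1 (1.79). They are the forms used in most tissues other than the muscle fiber. Over all genes 1.19% were lower and 45.1% higher as deposited. HK1 was at 53.7 and 46.3 against 2.35 and 6.98 TPM, whereas HK2, the hexokinase of muscle and fat, was at 2.72 and 3.26 against 8.61 and 10.003 TPM. As a result HK1 went from below HK2 in both sham-operated limbs to far above it in both non-repaired limbs. PFKM, the muscle phosphofructokinase, was at 221 and 329 against 874 and 819.7 TPM and remained the most abundant form, over PFKP at 43.2 and 41.8 against 2.87 and 7.18 TPM and PFKL at 33.6 and 32.98 against 5.22 and 8.99 TPM. ENO3, the muscle enolase, was at 1797 and 3399 against 7739 and 6888 TPM against ENO1 at 286 and 309 against 83.4 and 88.5 TPM. The same split held for PGAM2 (-1.62) and PGAM1, for the creatine kinases CKM (-1.59) and CKB (2.09) and for the phosphorylase kinase subunits PHKG1 (-1.66) and PHKG2 (2.12). These pairs were chosen after their values were seen. Of the muscle forms, CKM passed on neither scale (rescaled adjusted p = 0.0504 by limma), and HK2, PFKM, ENO3, PGAM2 and PHKG1 passed rescaled alone. Of the other forms, ENO1 (rescaled 0.79, adjusted p = 0.217 by limma) and CKB (rescaled 1.21, adjusted p = 0.126 by limma) passed as deposited alone. LDHA, TPI1, PGK1 and GPI fell short of the threshold as deposited whichever of the 4 limbs was left out, PKM when the limb of pig 017, 025 or 026 was left out, HK1 when the limb of pig 017 or 025 was left out, CKB when the limb of pig 023 or 025 was left out.

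**Figure D4:**
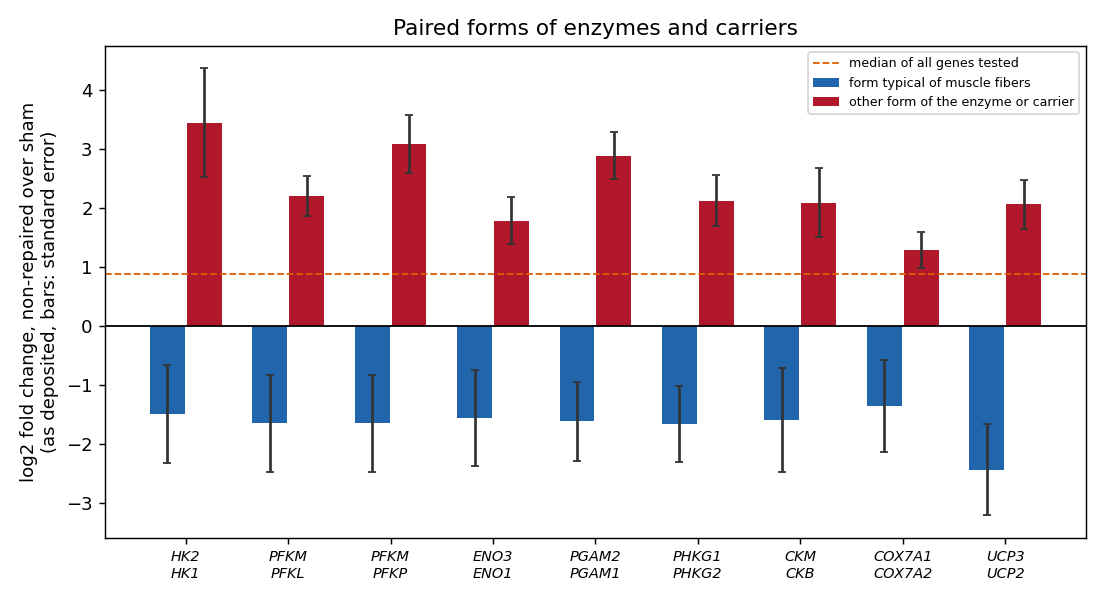
Log2 fold change as deposited of non-repaired over sham-operated muscle for 9 pairs of genes that encode forms of the same enzyme, subunit or carrier, with error bars of 1 standard error. The pairs were chosen after their values were seen. Forms typical of the muscle fiber are drawn below 0 and the other forms above the dashed line at 0.89, the median of all genes.

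Genes that handle glycogen and phosphocreatine mostly fell on the rescaled scale. PYGM, the muscle glycogen phosphorylase, was at 966 and 1859.6 against 4452 and 5425 TPM (-2.87 ± 0.94, adjusted p = 0.0283 rescaled), and GYS1, the glycogen synthase, at 40.6 and 50.6 against 121 and 129 TPM (-1.45 ± 0.55, adjusted p = 0.0453). Of 17 glycogen genes 3 fell and 3 rose as deposited, against 1.19% and 45.1% of all genes. Rescaled, 11 fell and 2 rose, against 21.4% and 22.2% of all genes. GAA, the lysosomal glucosidase, also rose as deposited (1.67), beside the kinase subunits PHKA2 (2.20) and PHKG2. PHKA2 had passed the filter through the non-repaired limbs alone, so it had to differ to be measured. CKM was at 5369 and 7265 against 19872 and 17809.5 TPM and CKMT2, the mitochondrial form in muscle, at 223 and 214 against 691 and 749 TPM. For both genes the groups were well apart, but neither passed on either scale (rescaled adjusted p = 0.0504 and 0.0872 by limma). AK1, an adenylate kinase, was at 249.8 and 283 against 639.8 and 849 TPM (-2.47 ± 0.81, adjusted p = 0.0297 rescaled) and SLC16A3, the exporter of lactate, at 26.5 and 32.1 against 69.6 and 122 TPM (-1.64 ± 0.51, adjusted p = 0.0196). With pig 017, 023, 025 or 026 left out in turn, 5, 8, 3 and 8 glycolysis genes and 3, 6, 2 and 7 glycogen genes were lower rescaled. As deposited, 1, 0, 0 and 1 glycogen genes were lower and 3, 2, 1 and 3 higher in those fits, and 0, 1, 0 and 1 higher rescaled. The call of GYS1 was lost as deposited whichever of the 4 limbs was left out, SLC16A3 when the limb of pig 017, 023 or 026 was left out, PHKA2 when the limb of pig 023 or 025 was left out, GAA when the limb of pig 025 was left out.

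Mitochondrial genes had less negative medians than those of the sarcomere. Genes of the tricarboxylic acid (TCA) cycle and pyruvate entry had a median of -1.09 (-2.09 rescaled), fatty acid oxidation genes of -0.80 (-1.80 rescaled) and oxidative phosphorylation genes of -0.75 (-1.74 rescaled). As deposited 5 of 29, 1 of 25 and 2 of 65 genes were lower, against 1.19% of all genes. Rescaled 26, 21 and 49 were, against 21.4% of all genes, so that the number rests on the scale. CS (citrate synthase), which opens the cycle, was at 59.7 and 63.7 against 139 and 161 TPM (-1.27 ± 0.49, adjusted p = 0.0479). ACADL, a dehydrogenase of long-chain fatty acids, was at 33.7 and 41.97 against 91.4 and 98.1 TPM (-1.32 ± 0.51, adjusted p = 0.0495). For both genes the groups were apart in level. In the respiratory chain, NDUFS1 of complex I was at 59.4 and 71.2 against 145 and 149.5 TPM, SDHB of complex II at 164 and 164 against 357 and 355 TPM and ATP5A1 of the ATP synthase at 622 and 542 against 999 and 915 TPM, and all 3 fell rescaled (-2.17, -2.11 and -1.72). Against this direction, COX6A1, the form of this cytochrome oxidase subunit outside heart and muscle, was at 336 and 250.02 against 29.9 and 48.2 TPM (2.92 ± 0.40, adjusted p = 1.37e-04). COX7A2, likewise the wider form, rose as deposited (1.29) while the muscle form COX7A1 was at 642 and 461 against 1353 and 1435 TPM. COX7A1 passed on neither scale (rescaled adjusted p = 0.0608 by limma). The regulator PPARGC1A (PGC-1α), which drives mitochondrial biogenesis, was at 0.782 and 0.828 against 2.67 and 2.41 TPM and fell rescaled (-1.99 ± 0.44, adjusted p = 0.00533). It had passed the filter through the sham-operated limbs alone, so it had to differ to be measured. UCP2, the uncoupling protein of immune cells, rose (2.06 ± 0.42, adjusted p = 0.00183) where UCP3 fell. There were 13, 13, 9 and 18 TCA, 12, 5, 3 and 12 fatty acid and 14, 4, 3 and 13 oxidative phosphorylation genes lower rescaled with pig 017, 023, 025 or 026 left out in turn. As deposited the same fits left 0 or 1 gene lower in each of these lists. As deposited, CS and ACADL no longer passed whichever of the 4 limbs was left out.

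Genes of blood vessels lay near the median of all genes. PECAM1, on all endothelium, was at 119.7 and 232 against 58.04 and 114 TPM and CDH5, its junction cadherin, at 22.8 and 41.5 against 18.4 and 30.9 TPM, and neither passed on either scale. Of 19 endothelial genes 4 were higher as deposited and 0 rescaled, and the median was 0.57 as deposited and of the opposite sign, -0.41, rescaled. These counts compare with 45.1% and 22.2% of all genes, and the first was 1, 0, 1 and 3 with pig 017, 023, 025 or 026 left out in turn. ANGPT2, which is released when vessels remodel, was at 11.9 and 17.6 against 3.699 and 2.86 TPM (1.999 ± 0.56, adjusted p = 0.0118) and passed as deposited only. All 3 tested lymphatic genes rose on both scales, with LYVE1 at 28.1 and 20.98 against 1.18 and 1.18 TPM (3.89 ± 0.31, adjusted p = 6.16e-06), CCL21 at 156 and 79.2 against 7.83 and 7.304 TPM (3.79 ± 0.45, adjusted p = 5.98e-05) and PDPN at 41.4 and 30.4 against 4.82 and 3.13 TPM (3.03 ± 0.30, adjusted p = 1.69e-05). LYVE1 is also found on macrophages and PDPN on fibroblasts, and PROX1, the defining lymphatic transcription factor, was below the filter. ANGPT2 fell short of the threshold as deposited when the limb of pig 023 or 026 was left out.

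Fat, nerve and cell division were also examined. ADIPOQ, the adipocyte hormone, was at 12.5 and 12.8 against 4.09 and 11.1 TPM and PLIN1, which coats the fat droplet of adipocytes, at 5.44 and 5.95 against 1.46 and 5.49 TPM, and neither passed on either scale. Over the adipocyte list 4 of 19 genes were higher and 1 lower as deposited, against 45.1% and 1.19% of all genes. Rescaled, 1 and 7 of the list were, against 22.2% and 21.4% of all genes. Leaving out these limbs in the order of pigs 017, 023, 025 and 026 gave 4, 2, 1 and 4 higher as deposited and 3, 4, 4 and 4 lower rescaled. SCD, a desaturase of fat synthesis, was at 11.3 and 9.87 against 1.52 and 1.95 TPM (2.32 ± 0.36, adjusted p = 3.35e-04), whereas PNPLA2, the lipase that starts fat release, was at 46.2 and 36.1 against 68.7 and 95.96 TPM (-0.98 ± 0.35, adjusted p = 0.0358). Of the Schwann cell and nerve genes, 6 of 19 were tested, 4 of them through 1 group alone. GAP43, a protein of growing axons and repair Schwann cells, was at 5.59 and 3.82 against 0.356 and 0.646 TPM (2.37 ± 0.49, adjusted p = 0.00190). Of 22 proliferation genes tested 15 passed the filter through 1 group alone, TOP2A and RRM2 among them, and such genes had to differ, so the 18 called higher as deposited and 11 rescaled are a description only. TOP2A was at 2.94 and 6.22 against 0.758 and 1.56 TPM (1.58 ± 0.43, adjusted p = 0.0105) and RRM2, a subunit of ribonucleotide reductase, at 4.99 and 10.5 against 0.716 and 1.27 TPM (2.40 ± 0.49, adjusted p = 0.00178), with the limb of pig 023 about 2 times that of pig 017 for both. With pig 017, 023, 025 or 026 left out in turn, 16, 5, 7 and 17 proliferation genes were higher as deposited and 9, 1, 1 and 12 rescaled. Immediate early genes, which respond within minutes to handling, were higher in 4 of 18 cases as deposited and 0 rescaled. These counts compare with 45.1% and 22.2% of all genes, and the first changed with the limb left out. FOS was at 38.05 and 82.5 against 206 and 83.7 TPM and EGR1 at 46.3 and 54.4 against 34.6 and 19.99 TPM, and neither passed. HBB, the β-globin that blood carries into tissue, was at 276 and 56.2 against 15.7 and 79.6 TPM and KRT10 of skin at 8.76 and 5.71 against 4.22 and 5.77 TPM, and the groups overlapped for both. The call of PNPLA2 was lost as deposited whichever of the 4 limbs was left out, and TOP2A when the limb of pig 023 or 025 was left out.

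The 2 non-repaired limbs were not equal in the levels of many fiber transcripts. Pig 023 was above pig 017 for 28 of 29 Z-disc, M-band and giant protein genes, with a median difference of 0.69 on the log2 scale, and for 12 of 13 fast-twitch genes (0.45), against a median of 0.14 over all genes. Genes chosen after their values were seen show the range. TTN (titin) was at 443 and 2602 against 2982 and 3359.96 TPM, NEB (nebulin) at 447 and 1339 against 2179 and 3019.9 TPM and NRAP, a protein of growing myofibrils, at 46.1 and 186 against 309.6 and 322 TPM. The level in pig 023 approached the sham-operated limbs for TTN, while that in pig 017 was far below, and none of the 3 passed on either scale. In contrast, pig 017 was above pig 023 for 60 of 65 oxidative phosphorylation genes (median -0.28 for pig 023 minus pig 017), and for SPP1 (osteopontin), at 589 and 255 against 1.17 and 12.2 TPM (6.40 ± 0.91, adjusted p = 2.36e-04). Endothelial genes, 17 of 19 higher in pig 023 (median 0.77), also differed between limbs by as much as between groups. The sham-operated limbs differed in stroma, with pig 026 above pig 025 for 17 of 17 matricellular genes (median 1.16) and for 21 of 22 macrophage genes (0.53), against 0.24 over all genes. Each limb is 1 sample of tissue. The library titles carry a PT number that differs in every limb compared, and its meaning is not given in the sources used here. Where in the PT muscle the tissue was taken relative to the defect is not given either. The part of the sampling site in these differences was not tested.

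**Figure D5:**
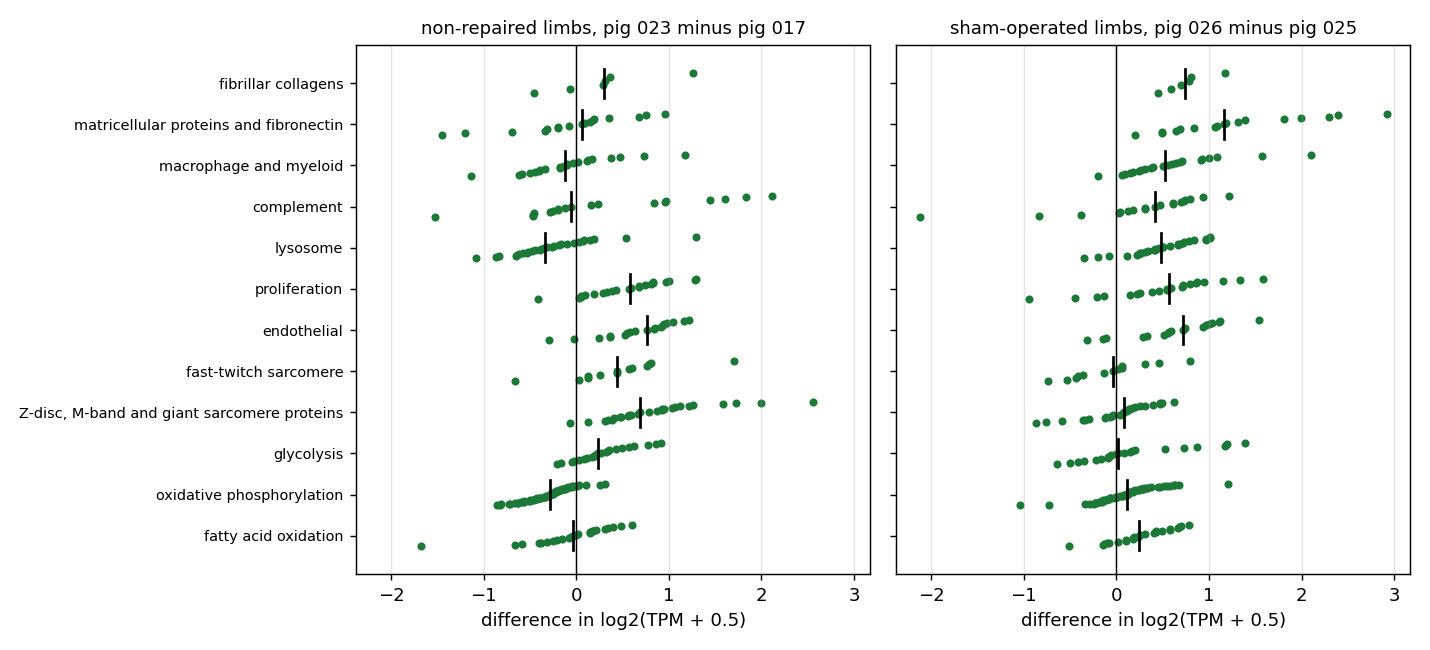
Difference in log2(TPM + 0.5) between the 2 non-repaired limbs (left) and the 2 sham-operated limbs (right) for each tested member of 12 gene lists, with a vertical bar at the median of each list. Z-disc, fast-twitch and endothelial genes lie right of 0 in the non-repaired limbs, and matricellular and macrophage genes lie right of 0 in the sham-operated limbs.

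Against the other injured limbs the non-repaired limbs gave no gene past the threshold. In limma, 0 of 8726 genes passed against the 2 Hya-repaired limbs (192 at an unadjusted p under 0.05 as deposited and 183 rescaled) and 0 against the 6 ECM-repaired limbs (64 and 112). The lowest adjusted p was 0.156, for NR1D1, a clock repressor, against ECM-repaired limbs on the rescaled scale. Pig 017 gave a limb to both the non-repaired and the Hya-repaired group, and the fit held no term for the pig. With 2 non-repaired limbs these counts do not show that the injured groups were alike.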

How the data were processed

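RNA was sequenced from PT muscle of 12 limbs of 11 pigs. The authors minced and homogenised the tissue, made TruSeq libraries from total RNA, sequenced paired ends, pseudoaligned the reads with kallisto at default parameters to the pig genome as annotated by UCSC (build 9.2) and tested counts with DESeq2. The versions of these tools are not given in the sources used here. The deposited values are TPM made by the authors, 1 column per limb, so limma was used here in place of a count test. Each of the 12 libraries was assigned to a condition by its label, with 2 in each of the 2 groups compared.

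Genes with at least 1 TPM in both limbs of either group were kept, log2(TPM + 0.5) was fitted in limma 3.58.1 (R 4.3.3) with a coefficient per condition over all 12 libraries, with trend and robust estimation, and p-values were adjusted over the 8726 genes (Benjamini-Hochberg, threshold 0.05). All adjusted p-values and standard errors are from this fit. For the rescaled values, each library's TPM were multiplied by a trimmed-mean factor (30% of log ratios and 5% of abundances trimmed), namely 0.851 and 0.753 for the non-repaired and 1.76 and 1.45 for the sham-operated limbs of pigs 017, 023, 025 and 026. Fold changes are on the log2(TPM + 0.5) scale and understate the change of low genes. The method was tested on simulated data with 200 of 8726 genes changed. It recovered 4.8% of genes changed by 1 log2 unit as deposited and 6.4% rescaled. For genes changed by 2 log2 units, it recovered 59.6% as deposited and 66.4% rescaled. Of its calls, 4.0% as deposited and 6.31% rescaled were false. A gene that did not pass may therefore still differ between the groups. The genes named are the 12 largest rises and falls past the threshold on both scales among genes above the median TPM of 11.8 whose groups did not overlap, the first 4 members and the 3 smallest p of each of 47 lists, and CD163, PAX7, MYOG, TGFB1, IL10 and TNF. Other list members named were chosen after their values were seen. Some genes that meet this rule are not reported here. The lists share genes, and the members and lists were chosen with earlier results of these data known. Of the names in the table, 618 of 1833 LOC names received a symbol by their gene number, and 21 that had been turned into dates were not tested. The alternatives tried were 2 other scalings, pseudocounts of 0.1 and 1, other filters, limma without trend and robust estimation, and fits to fewer libraries.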

Additional observations from a re-analysis of the deposited data

Results flagged for a closer look

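Names of 21 genes had been turned into dates, as spreadsheet programs do with names such as those of the MARCH and SEPT families, and were in no comparison of the report. Of these entries 15 were at 1 TPM or more in both non-repaired limbs and above both sham-operated limbs, and their mean TPM was higher than in sham-operated limbs by the following folds: 10-Mar 16.3-fold, 2-Mar 1.98-fold, 3-Mar 3.41-fold, 6-Mar 1.27-fold, 7-Mar 1.53-fold, 8-Mar 3.53-fold, 9-Mar 1.83-fold, 15-Sep 5.19-fold, 1-Sep 3.13-fold, 11-Sep 3.13-fold, 2-Sep 5.76-fold, 5-Sep 7.05-fold, 6-Sep 2.49-fold, 7-Sep 3.62-fold and 8-Sep 4.07-fold. The entry 15-Sep was at 198 and 183 against 29.2 and 44.2 TPM and 2-Sep at 197 and 173 against 28.1 and 36.2 TPM, with the limbs in the order of pigs 017, 023, 025 and 026, so that the groups were far apart for both. For scale, 70.8% of all tested genes lay above both sham-operated limbs as deposited, and the median gene rose by 0.89 log2 units. The folds of 6-Mar and 7-Mar were smaller than that rise. The fold of 10-Mar rests on sham-operated levels of 0.0836 and 0.142 TPM. Of the other entries, 1-Mar lay below both sham-operated limbs, at 15.5 and 36.3 against 42.4 and 83.7 TPM. None of the differences between groups in these entries was tested.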

How the results depend on the processing

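No paired analysis was possible because No repair and Sham share no pig and the labels give no replicate numbers. Of the 3934 genes higher as deposited, the count was 1935 with trimmed means, 1939 with median-of-ratios factors and 2091 after leaving out the 20 most abundant sham genes, and 2822, 2482, 2184 and 3366 with the limb of pig 017, 023, 025 or 026 left out. The 104 lower genes became 1864, 1854 and 689 under these scalings, 698 with only the 4 compared libraries, 275 without the Hya-repaired limb of pig 017, 275 without both Hya-repaired limbs (an alternative chosen after seeing the data) and 63 without both libraries of pig 017, and 15, 21, 21 and 17 with 1 limb left out in the same order. On the rescaled scale, the 1935 higher genes became 1112, 1311, 1055 and 1639 and the 1864 lower genes 665, 822, 474 and 1253 in that order. The other alternatives kept these 4 counts within 1.5 times. A fit without 1 limb leaves 1 limb in its group, which is then assumed to vary like the other groups. The number of limbs limits these comparisons. TPM do not hold the depth of each library, so the part of read sampling in the spread of low genes was not tested.

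Signs turned for some of the genes named, none of which had passed as deposited. With trimmed means and with median-of-ratios factors, and, as the last of 3 values, after leaving out the 20 most abundant sham genes, the log2 fold changes were ADIPOQ -0.093 and -0.090, CDH5 -0.62, -0.61 and -0.35, CXCL10 -0.29, -0.29 and -0.054, CXCL12 -0.38, -0.38 and -0.11, EGR1 -0.067 and -0.063, ID1 -0.93, -0.93 and -0.66, IFIT1 -0.80, -0.79 and -0.54, IGF2 -0.66, -0.65 and -0.38, JCHAIN -0.63, -0.62 and -0.39, KRT10 -0.44, -0.44 and -0.19, PLIN1 -0.014 and -0.011 and TIMP3 -0.21 and -0.20. With each of the 4 limbs left out the log2 fold changes that turned ranged from -4.16 to 2.65 for ATOX1, from -0.059 to 0.79 for CDH5, from -2.30 to 0.88 for CHRNA1, from -0.42 to 0.25 for CNN1, from -0.083 to 0.19 for ID1, from -0.36 to 0.65 for IFIT1, from -0.092 to 0.66 for JCHAIN, from -0.83 to 0.021 for TGM2 and from -0.71 to 0.19 for TIMP4. Without both libraries of pig 017 the values were CNN1 0.062, ID1 -0.061, JCHAIN -0.037, TGM2 0.021 and TIMP4 0.19. Under the other alternatives no named gene changed sign. The cause was not tested.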

Other observations

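The genes CRABP1 and NR1D1, which belong to none of the lists, were chosen after their values were seen. CRABP1, which carries retinoic acid like CRABP2, was at 289 and 202 against 1.12 and 6.25 TPM with the limbs in the order of pigs 017, 023, 025 and 026 (log2 fold change 6.20 ± 0.72, adjusted p = 5.82e-05 by limma, rescaled 5.32). NR1D1, the clock repressor that also had the lowest adjusted p against ECM-repaired limbs, was at 18.1 and 16.3 against 53.4 and 51.7 TPM (-1.59 ± 0.43, adjusted p = 0.00931), with both limbs of a group close to each other, and did not pass with pig 023 or with pig 025 left out (adjusted p up to 0.0569).

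Some entries gave values that single libraries or single names decide. RPS3, a ribosomal protein of the small subunit, was at 5.94 and 1.81 against 392 and 242 TPM, unlike the other ribosomal proteins, and did not pass (adjusted p = 0.105 by limma). ATOX1, a copper chaperone, was at 111 and 0.496 against 13.1 and 22.7 TPM, so that 1 non-repaired limb was above and the other below both sham-operated limbs.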
